A study of Canis lupus familiaris with 34 samples.

Results

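In the canine mitral valve 7 genes known from mast cells were followed, namely CMA1, CPA3, TPSAB1, MS4A2, HDC, HPGDS and KIT. They were taken by symbol from a table of 23768 features, with the canine RefSeq feature used wherever a symbol was listed both as a RefSeq gene and as an aligned human gene (XenoRefSeq). All 7 were in the table and all 7 reached the minimum of 100 counts over the dogs. Mast cells are tissue-resident granulocytes that carry the receptor tyrosine kinase KIT, bind IgE through a high-affinity receptor and store proteases and histamine in granules. On activation they release the granules and newly synthesise prostaglandin D2. In the heart they are known for chymase, which can form angiotensin II, and for their presence in valve and myocardial connective tissue.

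The valves came from 34 privately owned Cavalier King Charles Spaniels of about 10 years. The 10y-noCHF group held 19 dogs (10 females, 9 males) labelled ctrl, without congestive heart failure (CHF). All but 1 of them had myxomatous mitral valve disease (MMVD), which the paper describes as severe in several. The 10y-MMVD-CHF group held 15 dogs (6 females, 9 males) labelled case, in which MMVD had progressed to CHF. Each dog gave 1 library of poly-A RNA, so the spread between samples is a spread between dogs. Because the tissue was sequenced whole, fewer mast cells and less RNA per mast cell cannot be told apart. RNA of these genes from other cell types would be counted with that of mast cells. The total per dog ranged from 46185256 to 82361245 counts. Levels are given as raw counts or as CPM, which scales counts to a common library size after TMM normalization. Cardiac muscle differed greatly between samples, with a mean log2 CPM of 19 cardiomyocyte markers from -0.28 to 9.82 in 10y-noCHF and from 1.09 to 10.7 in 10y-MMVD-CHF.

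The mast cell genes were weakly covered. The sum over 34 dogs was 520 counts for CMA1, 531 for HDC, 753 for TPSAB1, 1454 for CPA3, 1498 for KIT, 4405 for MS4A2 and 14461 for HPGDS. No dog was at 0 for KIT or HPGDS, whereas 1 was for MS4A2, 5 for HDC, 6 for CPA3, 7 for CMA1 and 12 for TPSAB1. More than 3 counts of every one of the 7 genes were present in 9 of 19 10y-noCHF dogs and in 5 of 15 10y-MMVD-CHF dogs. Both reads of a pair were counted, and between 86.4% of the TPSAB1 counts above 0 and 96.6% of those of HDC were even numbers, HPGDS being the exception at 50%. A count of 2 can thus be a single fragment.

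Positions refer to canFam4 (UU_Cfam_GSD_1.0). CMA1 lies on chromosome 8 (4564103 to 4567048, minus strand), KIT on chromosome 13 (47870472 to 47952050, plus strand), MS4A2 on chromosome 21 (51392625 to 51399386, plus strand) and HPGDS on chromosome 32 (22730052 to 22754426, plus strand). These 4 were counted over RefSeq exons. CPA3 on chromosome 23 (44237426 to 44266751, plus strand) and HDC on chromosome 30 (16491552 to 16513689, minus strand) were counted over the whole span of the aligned human gene, introns included. TPSAB1 was counted over 1073 bases of an aligned human gene on chromosome 6, where RefSeq places the gene LOC100049001 (39978489 to 39979916). The human tryptase features TPSB2 and TPSD1 held the same count as TPSAB1 in 34 of 34 dogs. The tryptase value is therefore 1 measurement of the locus and does not separate the human paralogues.

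Only the 4 genes counted over exons could be compared by level per length. HPGDS was highest, with a median of 2.30 CPM per kb over the 34 dogs and a range from 0.105 to 61.9. MS4A2 followed at 0.916 CPM per kb (0.00 to 7.65), then KIT at 0.175 (0.0152 to 0.960) and CMA1 at 0.158 (0.00 to 1.71). The ranges of all 4 overlapped, and the medians of KIT and CMA1 lay close together relative to their spread. The longer aligned human feature held 220% of the RefSeq counts for KIT, 115% for HPGDS, 101% for CMA1 and 85.8% for MS4A2. The levels per length thus hold for the RefSeq exons alone.

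**Figure D1:**
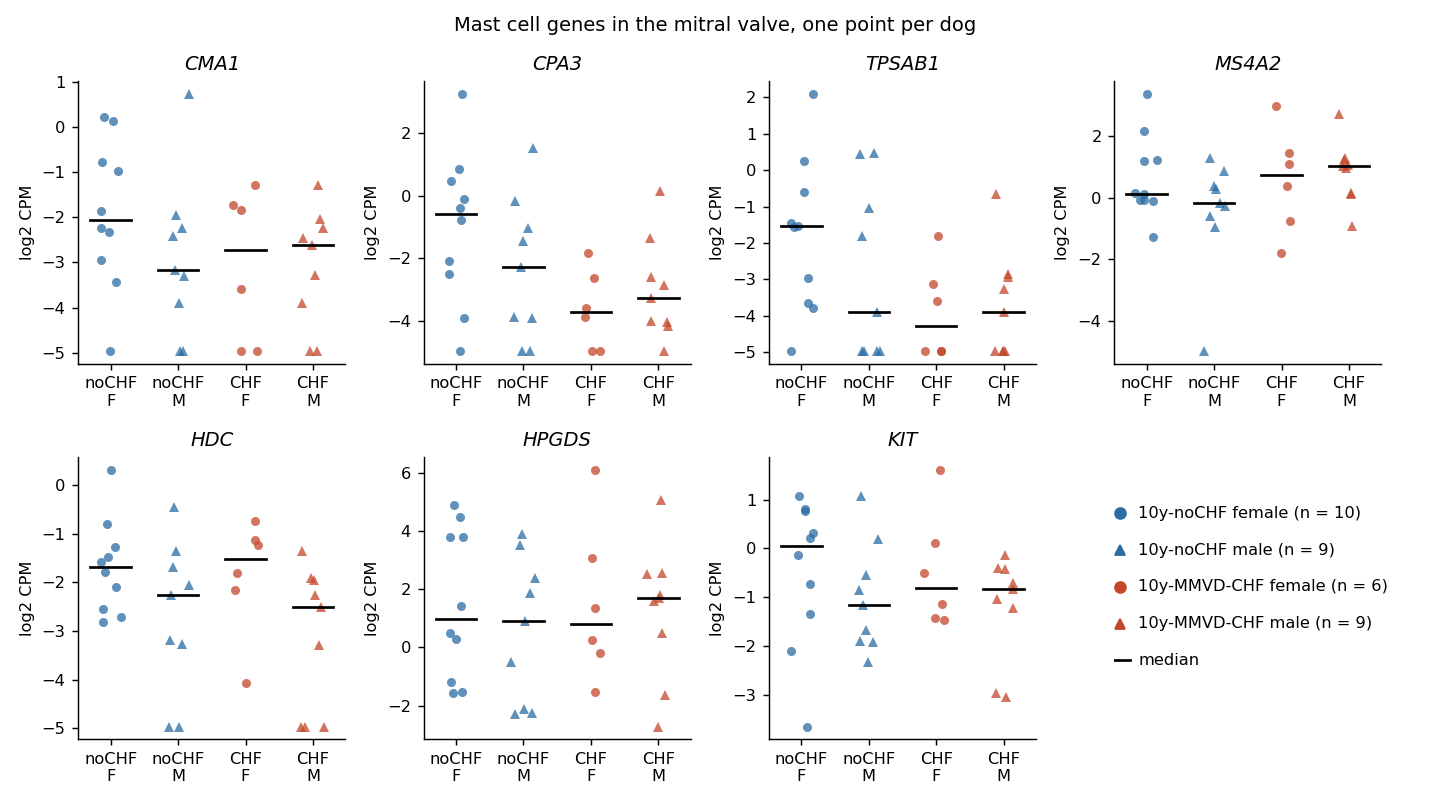
Level of each mast cell gene in each dog, as log2 CPM with a prior count of 2, by group and sex. Circles are females and triangles males, blue marks 10y-noCHF and red 10y-MMVD-CHF, and the black line is the median. The lowest points in the panels of CMA1, CPA3, TPSAB1, MS4A2 and HDC are dogs with 0 counts, whereas KIT and HPGDS had no such dog. Most of the 10y-MMVD-CHF dogs lie below the bulk of the 10y-noCHF females for CPA3 and TPSAB1.

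The question put to the design was whether these genes differed between valves of dogs with and without CHF. CPA3, carboxypeptidase A3 of the secretory granule, was lower in most dogs with CHF. It reached 0.00, 0.335 and 9.46 CPM in 10y-noCHF (lowest, median, highest, n = 19) and 0.00, 0.0513 and 1.08 CPM in 10y-MMVD-CHF (n = 15). A total of 13 of the 15 dogs with CHF were below the 10y-noCHF median, and 4 dogs without CHF were above the highest dog with CHF. The groups overlapped at the low end, where 3 dogs of each had 0 counts. Counts of 3 or fewer were found in 8 dogs with CHF and 6 without, and the median with CHF was 2 counts. The log2 fold change of CHF over no CHF was -2.53 with an SE of 0.94 and an unadjusted p of 0.0111, and the adjusted p of 0.607 (edgeR quasi-likelihood test, Benjamini-Hochberg) did not pass the threshold of 0.1.

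TPSAB1, the mast cell tryptase, had a similar distribution. Its level was 0.00, 0.253 and 4.25 CPM in 10y-noCHF and 0.00, 0.0354 and 0.605 CPM in 10y-MMVD-CHF (lowest, median, highest). Again 13 of 15 dogs with CHF were below the 10y-noCHF median, and 5 dogs without CHF were above the highest dog with CHF. Zero counts were found in 7 dogs with CHF and 5 without, so the ranges overlapped. A count of 3 or fewer was found in 9 dogs with CHF and 7 without, and the median with CHF was 2 counts. The log2 fold change was -2.56 (SE 0.95, unadjusted p = 0.0112, adjusted p = 0.607, edgeR). Measured on the RefSeq gene LOC100049001 instead, it was -2.45 with an adjusted p of 0.607.

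CMA1, the chymase, was less clearly separated. It had 0.00, 0.168 and 1.64 CPM in 10y-noCHF and 0.00, 0.132 and 0.382 CPM in 10y-MMVD-CHF. The 5 highest dogs were all without CHF, while 9 of 15 dogs with CHF were below the 10y-noCHF median. For CMA1 the log2 fold change was -1.17 (SE 0.71, adjusted p = 0.848, edgeR). It fell in size to -0.39 without the male CAV743, the 10y-noCHF dog with the highest CMA1 level, which had 95 of the 520 counts.

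MS4A2, the beta chain of the high-affinity IgE receptor, did not follow the proteases. It had 0.00, 1.05 and 10.2 CPM in 10y-noCHF and 0.255, 1.98 and 7.79 CPM in 10y-MMVD-CHF. Here 12 of 15 dogs with CHF were above the 10y-noCHF median, although the highest dog of all was the 10y-noCHF female CAV1732. The log2 fold change was 0.59 (SE 0.48, adjusted p = 0.899, edgeR), and the interval of 2 SE on either side ran from -0.37 to 1.55. The coefficient was 0.88 without CAV1732 (unadjusted p = 0.0495, adjusted p = 0.766, edgeR), 0.32 without the 10y-MMVD-CHF female CAV1872 and 0.01 in females alone.

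HDC, histidine decarboxylase, makes histamine from histidine. Its level was 0.00, 0.207 and 1.21 CPM in 10y-noCHF and 0.00, 0.191 and 0.564 CPM in 10y-MMVD-CHF, with nearly equal medians. With a log2 fold change of -0.43 (SE 0.56, adjusted p = 0.953, edgeR), HDC did not pass the threshold, and the coefficient was -0.17 without the 10y-noCHF male CAV285. The 5 dogs at 0 were all males, 2 without and 3 with CHF.

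HPGDS, the hematopoietic prostaglandin D synthase, had a wide range. It ran from 0.174 through a median of 1.85 to 29.8 CPM in 10y-noCHF and from 0.119 through 3.03 to 70.1 CPM in 10y-MMVD-CHF. The 2 highest dogs both had CHF, namely the female CAV1047 (2733 counts) and the male CAV373 (1803 counts). CHF over no CHF was 0.63 on the log2 scale (SE 0.75, adjusted p = 0.945, edgeR), and without CAV1047 it was -0.30, so its direction rested on that dog.

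KIT, the receptor for stem cell factor, was at nearly the same median in both groups. It had 0.0479, 0.573 and 2.08 CPM in 10y-noCHF and 0.0894, 0.531 and 3.02 CPM in 10y-MMVD-CHF. KIT had a log2 fold change of -0.20 (SE 0.41, adjusted p = 0.968, edgeR), with an interval of 2 SE on either side from -1.03 to 0.63. The sign turned, to 0.051, without the 10y-noCHF male CAV865.

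In all, 0 of the 7 genes passed the threshold for CHF, against 0.118% of the 19568 features tested (23 features). DESeq2, which called 0.327% of the features, also called 0 of the 7, and its smallest adjusted p among them was 0.186 for CPA3. At an unadjusted p below 0.05 there were 2 of 7, CPA3 and TPSAB1, both lower with CHF, against 6.31% of all features. The median log2 fold change of the 7 genes was -0.43, with 5 negative and 2 positive, while that of all features was 0.01. The genes were not independent, and the relation of CPA3 to TPSAB1 over dogs is given further on.

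**Figure D2:**
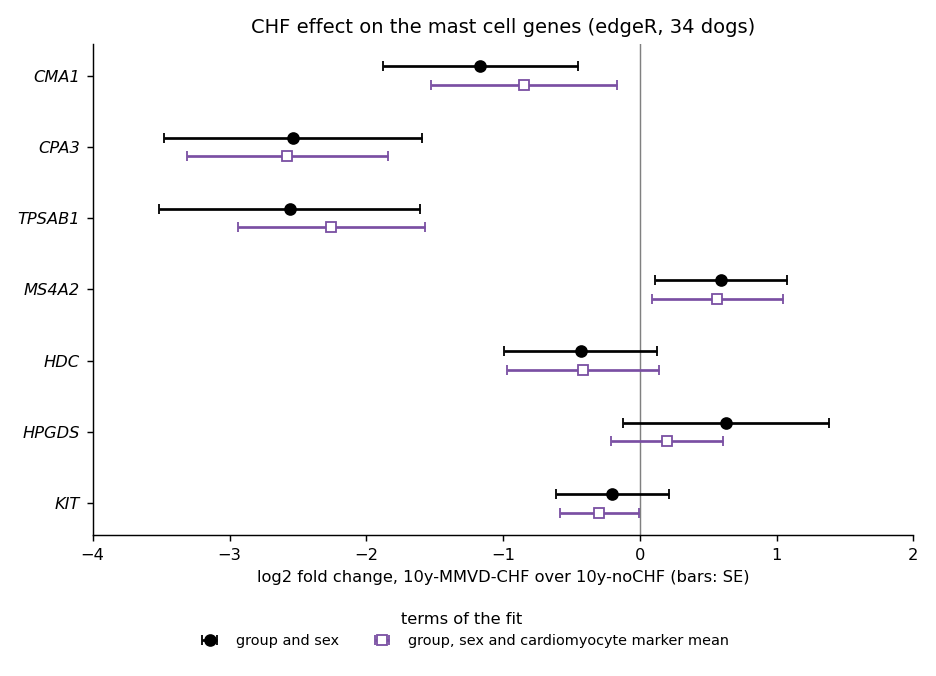
Log2 fold change of 10y-MMVD-CHF over 10y-noCHF for each gene, with bars of 1 SE, from edgeR with group and sex (filled circles) and with the cardiomyocyte marker mean added as a covariate (open squares). CPA3 and TPSAB1 lie below -2 in both fits, and HPGDS moves from 0.63 to 0.20.

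The CHF coefficients were also fitted with the cardiomyocyte marker mean as a covariate, because muscle content differed between samples. CPA3 was then at -2.58 (SE 0.73, unadjusted p = 0.00126, adjusted p = 0.265, edgeR) and TPSAB1 at -2.25 (SE 0.68, unadjusted p = 0.00221, adjusted p = 0.299). HPGDS was at 0.20 (SE 0.41), a smaller value with a smaller error than without the covariate. No member was called in that fit either.

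The difference for CPA3 and TPSAB1 kept its direction in every fit that left out 1 dog, and its size varied with the dog. The 10y-noCHF female CAV1732 held 46.2% of all CPA3 counts (672) and 40.1% of all TPSAB1 counts (302). Without it, the log2 fold change was -2.04 for CPA3 and -2.08 for TPSAB1. With each of the 34 dogs left out in turn, CPA3 ranged from -3.27 to -1.92 and kept an unadjusted p below 0.05 in 33 fits, the exception being the fit without the 10y-noCHF male CAV285 (unadjusted p = 0.0724). TPSAB1 ranged from -3.34 to -2.08 and kept it in 34 fits. The smallest adjusted p over these fits was 0.333 for CPA3 and 0.363 for TPSAB1. Limma voom with sample weights gave smaller values, -1.30 for CPA3 (adjusted p = 0.684) and -1.55 for TPSAB1 (adjusted p = 0.582).

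Males were compared with females in the same fit. No mast cell gene passed the threshold for sex (0.143% of all features did). The 7 coefficients of male over female were all negative, from -1.07 for HPGDS to -0.35 for TPSAB1. The medians of HPGDS (1.95 CPM in females, 3.12 CPM in males) and MS4A2 (1.17 and 1.23 CPM) went the other way. Those of the remaining genes were higher in females. KIT had a median of 0.774 CPM in females and 0.489 CPM in males, with a log2 fold change of -0.78 (SE 0.41, unadjusted p = 0.0648, adjusted p = 0.9997, edgeR). HDC had 0.280 CPM in females, where no dog was at 0, and 0.160 CPM in males, with a log2 fold change of -0.96 (SE 0.55, unadjusted p = 0.0914, edgeR). Without the female CAV1047 the sex coefficient was -0.19 for HPGDS and -0.46 for KIT (unadjusted p = 0.262, edgeR). Without CAV1732 the sex coefficients of CPA3 and TPSAB1 turned to 0.37 and 0.38.

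Within the sexes, the CPA3 median was 0.640 CPM in 10y-noCHF females and 0.0438 CPM in 10y-MMVD-CHF females, against 0.173 and 0.0702 CPM in males. The log2 fold change of CHF was -4.23 in females alone and -1.39 in males alone. For TPSAB1 it was -3.43 in females and -1.91 in males. The difference between the sexes was tested as an interaction, which was 2.85 for CPA3 (SE 1.67, unadjusted p = 0.0969, adjusted p = 0.842, edgeR) and 1.52 for TPSAB1 (SE 1.79, adjusted p = 0.976). For CPA3 it was 1.57 without CAV1732 and 0.93 with the muscle covariate. For TPSAB1 it was 0.17 without CAV373 and -0.26 with the muscle covariate. No mast cell gene had an interaction past the threshold, and neither did any other feature (0.0%), although 1178 features had an unadjusted p below 0.05 and DESeq2 called 3 features, none of them a mast cell gene.

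The 3 granule proteases were then set against each other within each dog, since a ratio of counts in a library needs no scaling. The log2 ratio of CMA1 to CPA3 (0.5 added to each count) was -0.78 ± 2.55 (SD, n = 19) in 10y-noCHF and 0.18 ± 2.05 (SD, n = 15) in 10y-MMVD-CHF. The difference of 0.96 was within the spread between dogs (two-sided permutation test within sex, 100000 resamples, p = 0.248, adjusted over 2 ratios p = 0.496). The log2 ratio of TPSAB1 to CPA3 was -0.86 ± 2.32 and -0.94 ± 1.17 in the same order, a difference of -0.08 (permutation p = 0.907). These ratios depend on the added 0.5, as 2 dogs without and 3 with CHF had no count of either TPSAB1 or CPA3. Among the 13 and 8 dogs with counts of both genes the difference was 0.28 (permutation p = 0.683), and for CMA1 to CPA3 it was 1.21 among 13 and 9 such dogs (permutation p = 0.103). Single dogs departed far from these means. CAV579, a 10y-noCHF female, had no CPA3 count and a log2 TPSAB1 to CPA3 ratio of 5.49, whereas the 10y-noCHF male CAV749 had CPA3 but no TPSAB1 count and a ratio of -5.73.

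**Figure D3:**
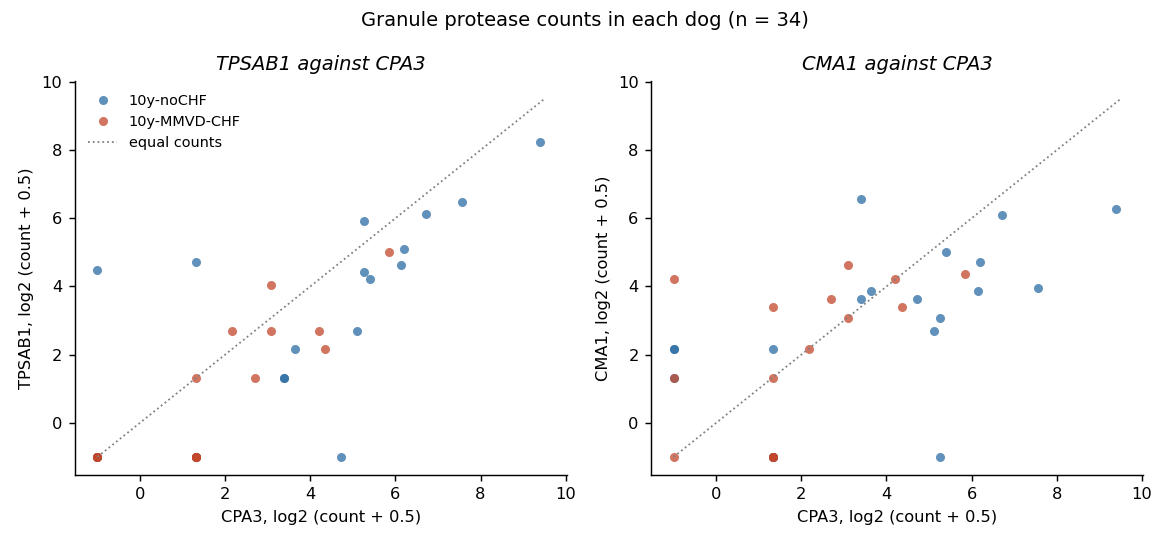
Counts of TPSAB1 (left) and CMA1 (right) against CPA3 in each dog, as log2 of the count plus 0.5, with 10y-noCHF in blue and 10y-MMVD-CHF in red. The dotted line marks equal counts, and dogs with the same pair of counts share a point. TPSAB1 lies below the line in most dogs, the highest point being CAV1732 with 672 CPA3 and 302 TPSAB1 counts.

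Whether the genes rose and fell together over dogs was asked next, on log2 CPM after group and sex means had been removed. Of the 21 pairs of mast cell genes, 10 passed an adjusted p of 0.1 (two-sided permutation test of Spearman's rho, 100000 resamples, Benjamini-Hochberg over 42 relations). All 10 lay among CMA1, CPA3, TPSAB1, HPGDS and KIT. The strongest were KIT and HPGDS (Pearson r = 0.80, Spearman rho = 0.82, n = 34), CPA3 and TPSAB1 (r = 0.78, rho = 0.72), HPGDS and TPSAB1 (r = 0.71, rho = 0.70) and CMA1 and CPA3 (r = 0.61, rho = 0.65). Their permutation p-values for rho were 1e-05 (the lowest value possible with this number of resamples), 2e-05, 3e-05 and 9e-05, with adjusted p of 0.000105, 0.000168, 0.00021 and 0.000472. The raw permutation p-values for r were 1e-05 for the first 3 pairs and 0.00015 for the fourth, and r was 0.80, 0.70, 0.76 and 0.67 once the 2 dogs with the most extreme levels of the first gene were left out.

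No pair with MS4A2 or HDC passed over the 34 dogs. Spearman's rho of MS4A2 with the other members ran from -0.09 with HPGDS to 0.27 with CMA1, and that of HDC from 0.08 with MS4A2 to 0.32 with KIT. The largest of these, HDC with KIT, had an adjusted permutation p of 0.152, and it passed without CAV614 and CAV1047 (rho = 0.37, adjusted permutation p = 0.0952). Within single groups MS4A2 was related to CMA1 in 10y-noCHF (rho = 0.60, adjusted permutation p = 0.0219) and inversely to HPGDS in 10y-MMVD-CHF (rho = -0.68, adjusted permutation p = 0.0643). In CAV1732, which ranked first for CPA3, TPSAB1, MS4A2 and HDC and second for KIT, all these genes were high together. In CAV1047, which ranked first for KIT and HPGDS, MS4A2 ranked 29th, and there were 2 counts each of CPA3 and TPSAB1.

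The mast cell genes that moved together also moved with cardiac muscle. Against the cardiomyocyte marker mean, Spearman's rho was 0.91 for HPGDS (r = 0.87), 0.80 for KIT (r = 0.76), 0.70 for TPSAB1 (r = 0.71) and 0.63 for CPA3 (r = 0.60), each with an adjusted permutation p of at most 0.0003. It was 0.39 for CMA1 (r = 0.36, adjusted permutation p = 0.0628). For HDC it was 0.26 (adjusted permutation p = 0.25) and for MS4A2 0.01 (adjusted permutation p = 0.959). Once the 2 dogs with the most extreme muscle levels were left out, r was 0.92 for HPGDS, 0.79 for KIT, 0.69 for TPSAB1 and 0.64 for CPA3. Among 10y-noCHF dogs alone the rho values were 0.87, 0.82, 0.80 and 0.66, and among 10y-MMVD-CHF dogs alone 0.89, 0.78, 0.53 and 0.59, where those of TPSAB1 and CPA3 had adjusted permutation p of 0.152 and 0.102.

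**Figure D4:**
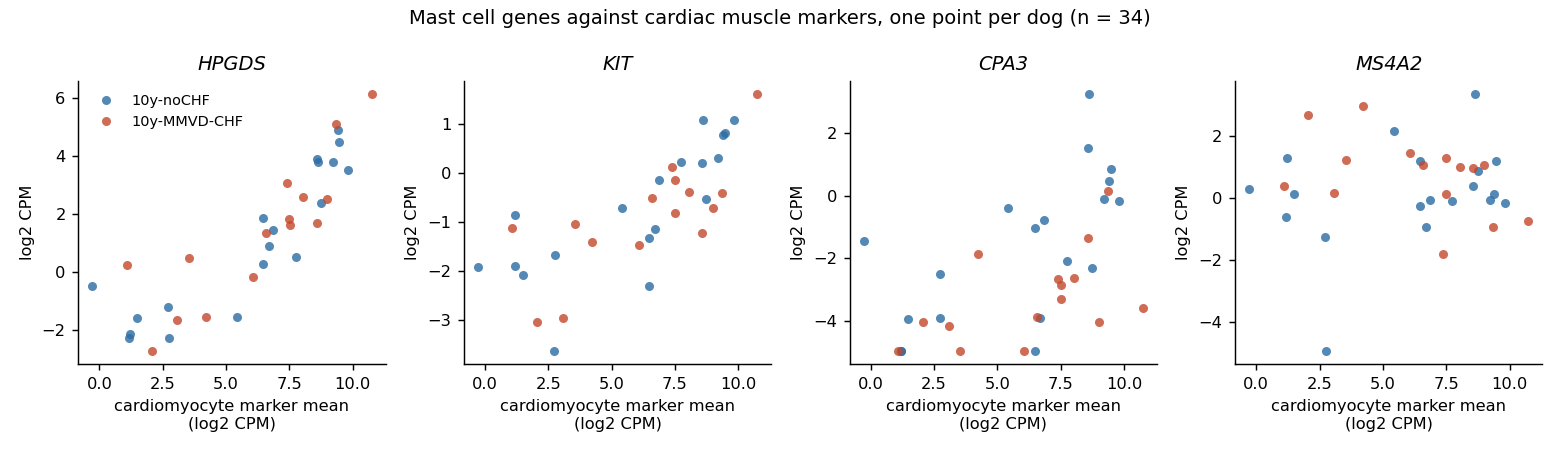
Log2 CPM of HPGDS, KIT, CPA3 and MS4A2 in each dog against the cardiomyocyte marker mean (19 genes, log2 CPM), with 10y-noCHF in blue and 10y-MMVD-CHF in red. HPGDS and KIT climb with muscle content and MS4A2 does not, with Spearman rho of 0.91, 0.80 and 0.01 after group and sex means were removed. On the values as plotted, rho is 0.91, 0.81 and -0.11. CPA3 is mostly lower in red than in blue at similar muscle content.

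Muscle content spanned a wide range, so the relations were repeated within the 17 dogs below and the 17 dogs above its median. For HPGDS and muscle, rho was 0.56 below (adjusted permutation p = 0.287) and 0.78 above (adjusted permutation p = 0.00861). TPSAB1 had rho of 0.78 below (adjusted permutation p = 0.0214) and 0.26 above. KIT had 0.25 and 0.45, neither of which passed, although its r of 0.65 in the upper range did (adjusted permutation p = 0.0511). CPA3 had 0.15 and 0.17, which did not pass. These sets are small. The marker mean ran from -0.28 to 6.70 log2 CPM in the lower set and from 6.85 to 10.7 in the upper, so only the upper set was narrow in muscle content. Of the pairs of mast cell genes, 3 passed within the upper range, namely CPA3 and TPSAB1 (rho = 0.85, adjusted permutation p = 0.00168), KIT and HPGDS (rho = 0.68, adjusted permutation p = 0.047) and KIT and TPSAB1 (rho = 0.65, adjusted permutation p = 0.0581). In the lower range no pair of mast cell genes passed the threshold.

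When the cardiomyocyte marker mean was removed from every gene together with group and sex, 4 of the 21 pairs still passed. These were CPA3 and TPSAB1 (rho = 0.60, adjusted permutation p = 0.00805), CMA1 and CPA3 (rho = 0.55, adjusted permutation p = 0.0121), KIT and HPGDS (rho = 0.54, adjusted permutation p = 0.0121) and CMA1 and TPSAB1 (rho = 0.48, adjusted permutation p = 0.0372). The 3 proteases thus formed 3 of the 4 remaining pairs. Among the pairs that did not pass, KIT had rho of 0.04 with CPA3 and 0.11 with TPSAB1, and HPGDS had 0.28 and 0.22 with them. Which cell types held the KIT, HPGDS and MS4A2 RNA was not tested.

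**Figure D5:**
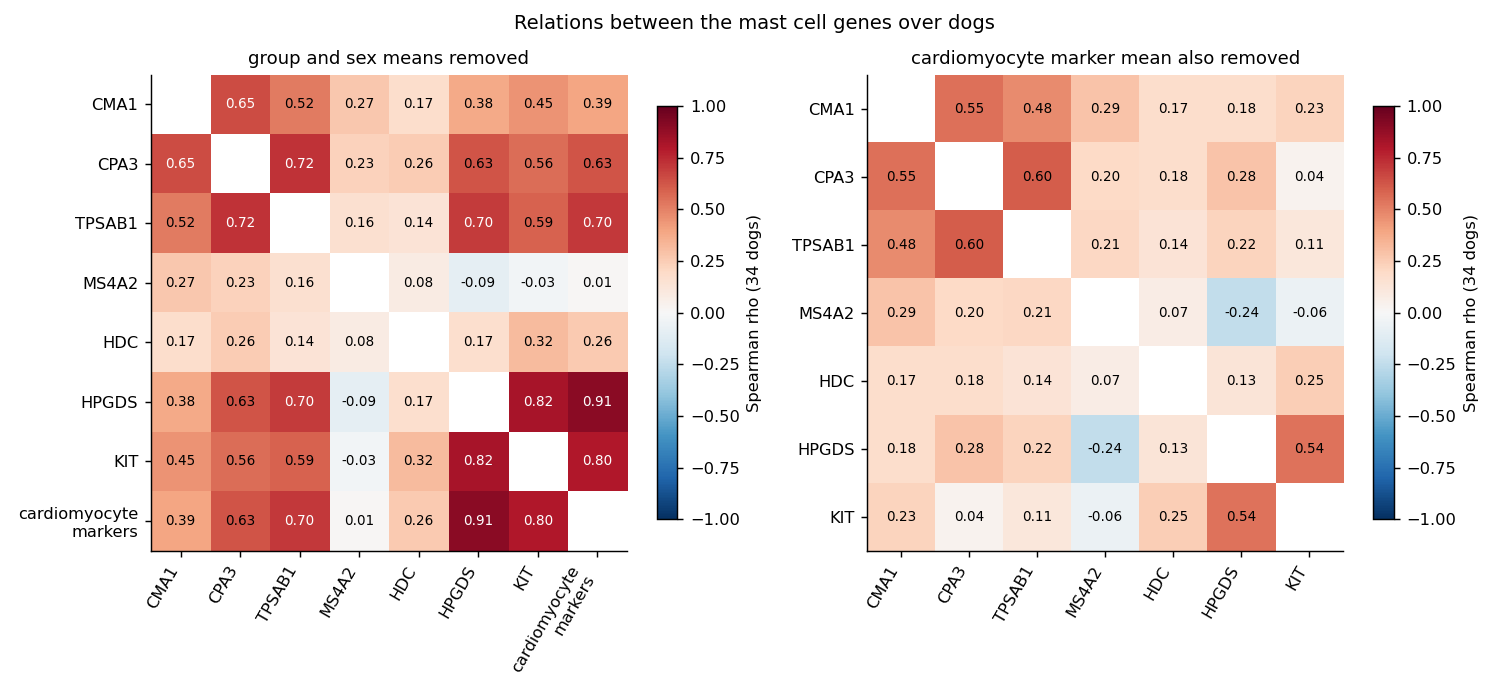
Spearman's rho over 34 dogs between the mast cell genes and with the cardiomyocyte marker mean, on log2 CPM with group and sex means removed (left) and with the cardiomyocyte marker mean removed as well (right). On the left, CMA1, CPA3, TPSAB1, HPGDS and KIT are mostly red, while MS4A2 and HDC are pale. On the right, the pairs among CMA1, CPA3 and TPSAB1 (0.48 to 0.60) and the pair of KIT and HPGDS (0.54) stay red.

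KIT is also carried by melanocytes and HPGDS is also made by macrophages, so markers of both cell types were examined. Of the 7 melanocyte markers, 5 reached the minimum sum and DCT and MLANA did not, and the summed level of the 5 ran from 2.71 to 7.26 CPM in 10y-noCHF and from 3.12 to 5.998 CPM in 10y-MMVD-CHF. Of these 5, TYR and TYRP1 were near the floor, at a mean of 0.0552 and 0.0652 CPM. The marker mean weighs all 5 equally, so it is a weak measure of melanocytes. Spearman's rho of the melanocyte marker mean with the mast cell genes ran from -0.27 to 0.00, with 0 of 7 relations past the threshold. The 10 macrophage markers summed to between 562 and 1948 CPM in 10y-noCHF and between 702 and 1878 CPM in 10y-MMVD-CHF. Their mean was inversely related to HPGDS (rho = -0.39, adjusted permutation p = 0.0628, r = -0.46, adjusted permutation p = 0.0205) and to TPSAB1 (rho = -0.36, adjusted permutation p = 0.0909). With muscle removed as well, rho was -0.41 for HPGDS (adjusted permutation p = 0.113) and -0.11 for TPSAB1 (adjusted permutation p = 0.7). Of the 7 basophil and eosinophil markers sought, 4 were tested and 0 were called for CHF, against 0.118% of all features. Their summed level ran from 2.77 to 5.85 CPM in 10y-noCHF and from 2.41 to 6.51 CPM in 10y-MMVD-CHF. The part of these cells in the mast cell gene levels was not tested.

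The features with the most similar pattern over dogs were listed for each gene as a description, among 16171 features with a mean of at least 1 CPM and after removing group and sex. HPGDS had the closest neighbours, KBTBD13, PPP1R14C, COQ8A, FRAS1 and CORIN, with rho from 0.95 to 0.96. Those of KIT were ACADL, INSR, KBTBD12, RGS6 and CCDC141 (0.89 to 0.91). Those of TPSAB1 were TPSG1, whose feature overlaps the same locus, then LINC01681, HRH1, METTL11B and MYBPC1 (0.79 to 0.81). CPA3 had VPS45, CCDC113, HAO2, FARSB and TOX (0.77 to 0.80). MS4A2 had FBP1, HLA-DOB, TIFAB, CD1E and CD1A (0.69 to 0.73). CMA1 (SLAIN1, METAP1, RHOH, NGLY1 and PIM2, 0.60 to 0.63) and HDC (NSA2, COX14, NDUFA1, MRPS18A and ADPRM, 0.58 to 0.63) had the loosest. CMA1, CPA3, TPSAB1, HDC and KIT had a mean below 1 CPM over the dogs, so they could not enter any of these lists. MS4A2 and HPGDS could, and neither was in the list of another mast cell gene.

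Other genes of the mast cell pathways were examined by list, and none passed the threshold for CHF. Of all 19568 features tested, 23 (0.118%) did. With so low a share, 0 calls in a short list does not set it apart from other features. Of the other granule genes, 0 of 6 were called, among which TPSB2 and TPSD1 repeat the TPSAB1 count. SRGN, the core protein of the granule proteoglycan serglycin, had 50.6 CPM on average and a log2 fold change of 0.06 (SE 0.18, adjusted p = 0.983, edgeR), and NDST2, which sulfates heparin, had 23.8 CPM and -0.04 (SE 0.06). Both are made by many other cell types as well.

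Of the 11 genes of the IgE receptor and its proximal signalling, 0 were called, and their median log2 fold change was 0.04, with 9 positive and 2 negative. The adaptor GAB2, the gene of the list with the highest CPM, had 119 CPM and a log2 fold change of 0.07 (SE 0.06, adjusted p = 0.908, edgeR). Of 6 tested genes of histamine storage, breakdown and reception, 0 were called and the median was 0.11. HNMT, which inactivates histamine by methylation, had 143 CPM in 10y-noCHF and 169 CPM in 10y-MMVD-CHF. Its log2 fold change was 0.25 (SE 0.10, unadjusted p = 0.0182, adjusted p = 0.662, edgeR). HRH1, a histamine receptor, was at 0.21 (SE 0.39). The HRH3 feature overlaps the features of ADRM1, LAMA5 and OSBPL2, so its count does not measure this receptor alone.

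The 11 prostaglandin D2 and leukotriene genes had a median of -0.04 and 0 calls. The cyclooxygenases PTGS1 and PTGS2, which supply the substrate of HPGDS, were both at -0.12 (SE 0.16 and 0.20). Of the 7 genes of KIT ligand and mast cell transcription factors, 0 were called, with a median of 0.00. GATA2, a transcription factor of mast cell development that endothelium also expresses, had 43.7 CPM and a log2 fold change of 0.07 (SE 0.11). Of 8 tested alarmins, receptors and surface markers, 0 were called, with a median of 0.05. IL33, an alarmin that activates mast cells, had 575 CPM and a log2 fold change of 0.05 (SE 0.15, adjusted p = 0.981, edgeR).

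Of the 8 tested genes of chymase substrates and the angiotensin system, 0 were called and the median was -0.10. FN1, fibronectin, which chymase can cleave, had 8662 ± 3574 CPM (SD, n = 19) in 10y-noCHF and 9571 ± 4486 CPM (SD, n = 15) in 10y-MMVD-CHF. Its fold change on the log2 scale was 0.15 (SE 0.19, adjusted p = 0.953, edgeR). EDN1, the endothelin-1 precursor that chymase can process, was the gene of this list with an unadjusted p below 0.05 (log2 fold change -0.40, SE 0.16, p = 0.0180, adjusted p = 0.662, edgeR) and was named after its value had been seen.

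Of the surrounding cell types, the 9 valve interstitial cell markers had a median log2 fold change of -0.06 and 0 calls, and the 7 lymphocyte markers 0.01 and 0 calls. The 10 macrophage markers had 0.20 and 0 calls, the 5 melanocyte markers -0.20 and 0 calls, and the 4 basophil and eosinophil markers 0.12. The 19 cardiomyocyte markers had 0.23 and 0 calls. Of the 8 endothelial markers, VWF was called (log2 fold change 1.40, SE 0.30, adjusted p = 0.0678, edgeR), and the median was 0.04. The share called over all features was 0.118%. The 4 tested hemoglobin genes had a median of 0.95 and 0 calls.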

How the data were processed

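Paired-end poly-A RNA reads were aligned by the authors to canFam4 (STAR). Raw counts from featureCounts 2.0.3 were deposited, which counted each read of a pair, without strand, for every feature it overlapped. The deposited table also gives the feature length (unit other). Of its count columns, 1 belongs to no sample and was not used. Groups and sex follow the labels.

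The 19568 features that summed to 100 counts or more were tested with edgeR 4.0.16 (TMM, group and sex, FDR threshold 0.1) in R 4.3.3, and all p-values were adjusted over all of them. DESeq2 1.42.0, the tool of the study, and limma 3.58.1 voom were alternatives, as were other scalings and filters, omitted dogs, single sexes and the cardiomyocyte marker mean as a covariate. Relations and ratios used permutation tests (Python 3.11.15, 100000 resamples). The CHF test and the permutation tests of Spearman's rho and of group differences were tried on simulated data first. The tests of sex, interaction and Pearson's r and the rule for dogs that stood apart were not. The relations within dogs above or below the median muscle level or with muscle removed, TPSAB1 on LOC100049001, and the ratios in dogs with counts of both genes were added after the data had been seen.

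The 7 genes and all lists were chosen with earlier results of these data known. The text names all 7 genes, up to 3 genes of a list with the highest mean CPM or any with an FDR below 0.1, the 5 nearest features of each gene, and dogs with a lowest or highest value. Genes outside that rule are named as such. Sequences were not used here.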

Additional observations from a re-analysis of the deposited data

Results flagged for a closer look

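The highest and the lowest dog of each group and sex were compared with the range of that set, for the 7 genes and the 2 protease ratios (36 sets). A dog stood apart in 16 sets, and in each the dog was the highest. About 1.8 (1 in 20) would be found in independent sets of normally distributed values. These sets share dogs and related genes, and CPM of weakly counted genes is skewed, so the number given by chance is not known. The gene values are on the CPM scale, which stretches high values, and the ratios are on the log2 scale.

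CAV1732 stood apart among the 10 10y-noCHF females for CPA3 (9.46 against 1.75 CPM in the dog below it, with 0.814 of the whole range between them), MS4A2 (10.2 against 4.39 CPM, 0.593), HDC (1.21 against 0.541 CPM, 0.609) and TPSAB1 (4.25 against 1.16 CPM, 0.726). CAV579 stood apart among the same females for the log2 ratio of TPSAB1 to CPA3 (5.49 against -0.59, 0.770). Among the 10y-noCHF males this held for CAV865 in KIT (2.07 against 1.11 CPM, 0.504), CAV743 in CMA1 (1.64 against 0.226 CPM, 0.862) and CAV285 in CPA3 (2.83 against 0.856 CPM, 0.697).

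CAV1047 stood apart among the 6 10y-MMVD-CHF females for KIT (3.02 against 1.05 CPM, 0.733) and HPGDS (70.1 against 8.43 CPM, 0.884), and it also had the highest cardiomyocyte marker mean of all dogs. CAV1872 did so for MS4A2 (7.79 against 2.69 CPM, 0.677) and CAV1876 for TPSAB1 (0.255 against 0.0820 CPM, 0.678). Among the 10y-MMVD-CHF males CAV373 stood apart for CPA3 (1.08 against 0.359 CPM, 0.667), HPGDS (34.1 against 5.92 CPM, 0.829) and TPSAB1 (0.605 against 0.105 CPM, 0.826), and CAV614 for MS4A2 (6.44 against 2.39 CPM, 0.681).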

How the results depend on the processing

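No mast cell gene was called for CHF, sex or their interaction under any alternative run. CPA3, TPSAB1, CMA1, HDC and MS4A2 kept the sign of their CHF coefficient throughout, with CPA3 from -4.23 to -1.30, TPSAB1 from -3.43 to -1.55, MS4A2 from 0.01 to 1.07 and HDC from -0.73 to -0.17. KIT was at 0.13 with voom and from -0.55 to 0.051 with each dog left out, and HPGDS at -0.21 without CAV614 and CAV1047 and from -0.30 to 0.92. The number of features called for CHF was 9 at a threshold of 0.05, 64 with DESeq2, 13 without a sex term, 0 in females alone and 0 in males alone, which are smaller sets, and 8 to 28 with each dog left out. DESeq2 called 3 interactions. For sex, HPGDS was at 0.060 with voom, CPA3 ranged from -1.13 to 0.37 and TPSAB1 from -0.86 to 0.38 with each dog left out.

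For the interaction, voom gave 0.28 for KIT and 1.63 for HPGDS, the fit without CAV614 and CAV1047 gave 0.60 and 2.45, and the muscle covariate gave -0.52 for CMA1 and -0.26 for TPSAB1. With each dog left out it ranged from -0.51 to 0.46 for KIT, -0.13 to 1.76 for CMA1, -0.83 to 0.12 for HDC, -1.23 to 2.28 for HPGDS, 1.57 to 4.01 for CPA3 and 0.17 to 2.77 for TPSAB1. The TPSAB1 to CPA3 difference was 0.037 with 1 added to each count, 0.28 in dogs with counts of both genes and from -0.35 to 0.27 with each dog left out.

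Of relations past the threshold, pairs of members numbered 4 with muscle removed, and 0 and 3 in dogs below and above the muscle median. Relations with cardiomyocyte markers numbered 2 in 10y-MMVD-CHF alone and 1 and 1 below and above that median. Those with macrophage markers numbered 0 in 10y-MMVD-CHF alone, 4 in 10y-noCHF alone, 1 with a prior count of 0.5, 0 with muscle removed and 0 in each of those 2 sets, and those with melanocyte markers 1 in 10y-noCHF alone. Below the muscle median, rho was -0.28 for KIT with CPA3, -0.21 for CMA1 with HPGDS and -0.32 for CMA1 with cardiomyocyte markers. In 10y-MMVD-CHF alone it was 0.15 for TPSAB1 with macrophage markers. The cause of these changes was not tested. No paired analysis was possible because the dogs carry individual numbers that no 2 groups share. The SE of the CHF coefficients ran from 0.41 for KIT to 0.95 for TPSAB1, so small differences were not detectable. Large ones could be missed too, as log2 fold changes of -2.53 for CPA3 and -2.56 for TPSAB1 did not pass the threshold.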
